A study of Homo sapiens with 8 samples.

Results

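The genes described here encode 10 proteins that silence endogenous retroviruses and other transposable elements through histone marks. They were taken by symbol from the table of FPKM values (fragments counted per gene, scaled for gene length and for the reads of the library) of THP-1 cells, SETDB1, SUV39H1, EHMT2, ATF7IP, TRIM28, TASOR, MPHOSPH8, PPHLN1, MORC2 and KDM1A, and make up 10 of its 60664 genes. All 10 were measured in every library and all 10 passed the filter on low values. The choice was by name, with earlier results of these data known.

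THP-1 is a human monocytic leukaemia cell line, and RNA-seq was made from its parental form and from a decitabine-resistant (DAC-resistant) derivative, both given the genotype WT in the labels. Each line received the vehicle DMSO or 1 µM decitabine (DAC, a cytosine analogue that traps DNA methyltransferases so that DNA methylation is lost as cells divide) for 6 days. This gave 4 groups of 2 libraries, parental DMSO, parental DAC, resistant DMSO and resistant DAC. The resistant cells had come through repeated pulses of DAC with recovery between them and had then been grown without the drug before the experiment, so they are 1 selected population, and a difference between the lines is a difference between 2 populations. The libraries of a group are labelled as biological replicates, with nothing said of separate derivations, so p-values measure the spread between these samples only.

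Histone H3 methylated at lysine 9 (H3K9) is the mark under which many endogenous retroviruses and LINE-1 elements are kept silent. KRAB zinc finger proteins bound to the elements recruit TRIM28 (KAP1), which brings in the methyltransferase SETDB1, and the human silencing hub (HUSH) complex of TASOR, MPHOSPH8 and PPHLN1 reads and spreads the mark together with SETDB1 and the ATPase MORC2. Loss of DNA methylation, which DAC causes, is another route by which such elements become active, and their double-stranded RNA can start an interferon response.

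Depth was similar between the libraries. The totals by which the values had been scaled ran from 27480502 to 31916835 reads per library, and the 10 genes were covered by 394 (SUV39H1 in parental DAC replicate 1) to 8810 reads (TASOR in parental DMSO replicate 1). Of 12 genes listed as marks of THP-1 cells, 10 reached 1 FPKM in all 8 libraries, and the 4 T cell markers stayed under 1 FPKM in all of them. Of 5 B and plasma cell markers, 1 (JCHAIN) reached 1 FPKM in every library, and no erythroid or epithelial marker did (GATA1 reached 3.39 FPKM at most). The summed level of the 12 THP-1 genes was 561 and 575 FPKM in parental DMSO, 688 and 695 in parental DAC, 420 and 408 in resistant DMSO and 414 and 398 in resistant DAC. The summed level of 12 proliferation genes was 578 and 581 FPKM in parental DMSO, 529 and 536 in parental DAC, 710 and 696 in resistant DMSO and 599 and 603 in resistant DAC, so it moved with the groups as well. Their part in the results below was not tested. In bulk RNA, fewer cells with a transcript and less of it per cell cannot be told apart.

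Promoter sequence was available from RefSeq (GRCh38.p14) for 9 of the 10 genes, and the 250 bases before the start are shown for PPHLN1 and TASOR, HUSH subunits that differed between the lines in opposite directions, and for MORC2, whose DAC effect differed between the lines, since CpG sites are where DNA methylation, which DAC lowers, is placed. CpG sites (CG, the same on both strands) are in capitals. The window of PPHLN1 lay at chr12:42325917-42326166 on the plus strand, that of TASOR at chr3:56683266-56683515 on the minus strand and that of MORC2 at chr22:30968775-30969024 on the minus strand, each ending 1 base before the RefSeq transcript starts. For PPHLN1 that start lies 87720 bases inside the start of the GENCODE gene.
PPHLN1: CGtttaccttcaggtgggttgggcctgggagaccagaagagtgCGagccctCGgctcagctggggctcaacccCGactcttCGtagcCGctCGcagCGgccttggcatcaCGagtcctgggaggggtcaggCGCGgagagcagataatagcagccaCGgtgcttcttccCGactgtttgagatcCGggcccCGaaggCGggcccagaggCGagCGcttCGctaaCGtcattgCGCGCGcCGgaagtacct
TASOR: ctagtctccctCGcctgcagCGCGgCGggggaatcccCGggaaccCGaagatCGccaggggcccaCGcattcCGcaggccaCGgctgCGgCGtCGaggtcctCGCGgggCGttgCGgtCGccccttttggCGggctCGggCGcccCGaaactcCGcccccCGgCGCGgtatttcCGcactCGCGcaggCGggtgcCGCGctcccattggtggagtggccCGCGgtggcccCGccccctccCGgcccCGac
MORC2: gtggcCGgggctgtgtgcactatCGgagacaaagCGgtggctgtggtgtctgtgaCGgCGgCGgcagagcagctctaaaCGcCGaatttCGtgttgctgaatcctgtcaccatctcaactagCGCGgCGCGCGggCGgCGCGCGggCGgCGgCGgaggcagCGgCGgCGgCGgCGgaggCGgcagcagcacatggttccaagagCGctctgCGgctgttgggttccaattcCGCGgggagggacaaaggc

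TASOR had 37 CpG sites in its window, MORC2 31 and PPHLN1 24, so PPHLN1, higher in the resistant line, and TASOR, lower in it, both had CpG-rich promoters. Of the others called between the lines in DMSO, SETDB1 had 9, ATF7IP 14 and MPHOSPH8 26 (all lower). EHMT2 had 16 and KDM1A 23 (both higher). The median of the 9 genes was 23, from 5 in SUV39H1 to 37 in TASOR, and the median of 35116 promoter windows in the table was 11. Each of the 9 genes was given the window of the RefSeq start nearest its GENCODE start, while the 35116 windows were not reduced in this way. Which start these cells use was not tested. At least as many sites as TASOR were found in 4.0% of all windows, as MORC2 in 10.9% and as PPHLN1 in 23.7%. The methylation of these sites was not measured in these files.

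The silencers were all moderately to highly expressed. TRIM28 had the highest FPKM of the 10 in each of the 4 groups, and its mean over the libraries stood at the 95.3 percentile of the 14899 genes tested. SUV39H1, MORC2 and PPHLN1 held the last 3 places in parental cells, with means of 7.26, 5.40 and 5.96 FPKM in parental DMSO. In that group the range of SETDB1 overlapped that of EHMT2 and that of ATF7IP, so those neighbours in the order did not differ beyond their spread. EHMT2 and ATF7IP did not overlap each other, and neither did the other neighbours. In resistant DMSO cells KDM1A had moved above TASOR (26.3 against 21.2 FPKM) and PPHLN1 above SUV39H1 and MORC2 (10.4 against 6.89 and 6.87 FPKM), and the ranges of SETDB1 and ATF7IP, and of SUV39H1 and MORC2, overlapped. These level comparisons rest on the gene lengths behind the FPKM values, 1 for each gene and none for an isoform. For 7 of the 10 that length equalled all exons of the gene in GENCODE 44. For SETDB1, EHMT2 and KDM1A the length recovered from the values was 7093, 7289 and 5440 bases, against 7375, 7300 and 18325 bases of exons in GENCODE 44, so the place of KDM1A in the order rests on the shorter length.

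**Figure D1:**
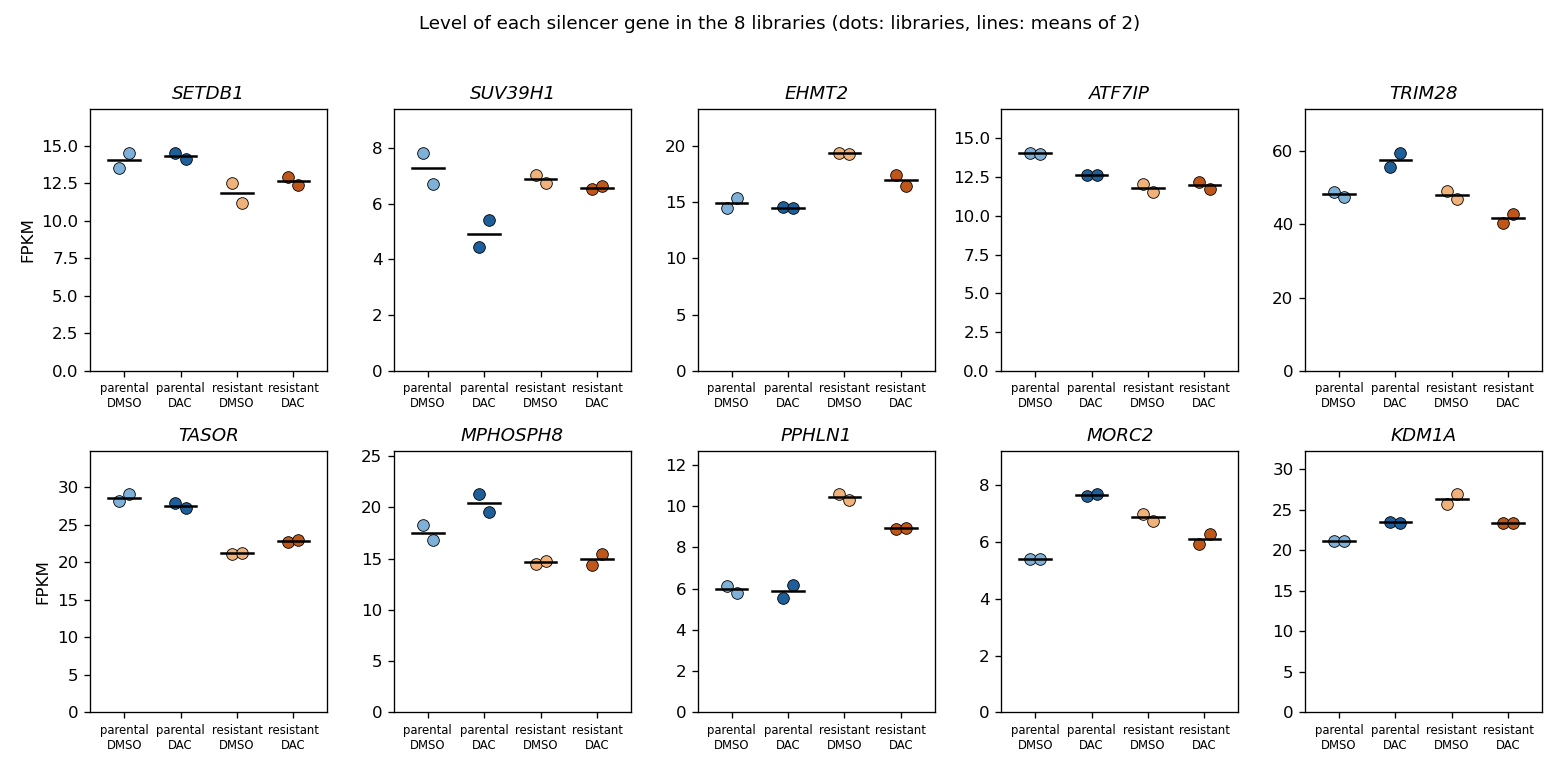
FPKM of each of the 10 genes (vertical axis, starting at 0) in the parental and the resistant line with DMSO or DAC, each dot a library and each line the mean of 2. PPHLN1 lies between 8.90 and 10.6 FPKM in the 4 resistant libraries and between 5.56 and 6.17 in the 4 parental ones, and TASOR lies the other way round.

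The HUSH subunits differed between the lines, and not in 1 direction. Gene positions are those of GENCODE on GRCh38. PPHLN1 (periphilin, ENSG00000134283, chr12:42238447-42459715, plus strand), the subunit that joins with TASOR in the complex, stood at 6.11 and 5.81 FPKM in parental DMSO, 5.56 and 6.17 in parental DAC, 10.6 and 10.3 in resistant DMSO and 8.90 and 8.92 in resistant DAC. Every resistant library was above every parental one. In DMSO the resistant line was higher by 0.72 on the log2(FPKM + 1) scale (95% interval 0.58 to 0.85, limma, adjusted p = 6.53e-05), which was a 75.0% higher mean FPKM, and in DAC it was higher by 0.53 (0.40 to 0.66, adjusted p = 0.000179). Of the 12155 exon bases of PPHLN1, 438 are shared with PRICKLE1 (2.75 to 3.98 FPKM) and 64 with ZCRB1, both on the opposite strand, and ZCRB1 was also higher in the resistant line (3.98 and 4.15 FPKM in parental DMSO, 6.69 and 6.95 in resistant DMSO). The gene ENSG00000257225, on the same strand, shares 350 exon bases with PPHLN1 and ran the other way (0.260 and 0.248 FPKM in parental DMSO, 0.0114 and 0.0715 in resistant DMSO). The part of those shared bases was not tested, and whether reads were counted by strand is not given in the sources used here.

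TASOR (ENSG00000163946, chr3:56620132-56683265, minus strand), the scaffold on which HUSH is built, ran the other way. It stood at 28.2 and 29.1 FPKM in parental DMSO, 27.9 and 27.2 in parental DAC, 21.1 and 21.3 in resistant DMSO and 22.7 and 23.0 in resistant DAC. All 4 resistant libraries were below all 4 parental ones. The log2 difference was -0.42 in DMSO (-0.49 to -0.35, adjusted p = 4.55e-05) and -0.26 in DAC (-0.33 to -0.19, adjusted p = 0.000286). In TPM the difference in DAC was -0.14 and was still called (adjusted p = 0.00558). Exons of TASOR share 306 bases with CCDC66 on the opposite strand, a gene of 1.61 to 2.12 FPKM, and their part was not tested.

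MPHOSPH8 (MPP8, ENSG00000196199, chr13:19633659-19673441, plus strand), whose chromodomain binds methylated H3K9, was also lower in the resistant line. Its levels were 18.3 and 16.8 FPKM in parental DMSO, 21.3 and 19.5 in parental DAC, 14.5 and 14.8 in resistant DMSO and 14.4 and 15.5 in resistant DAC, so that the parental DAC libraries were the highest and the resistant ones the lowest. The line difference was -0.24 in DMSO (-0.39 to -0.10, adjusted p = 0.0126) and -0.43 in DAC (-0.57 to -0.28, adjusted p = 0.000801). DAC raised it in parental cells by 0.21 (0.06 to 0.35, adjusted p = 0.0240), a call lost with quantile normalisation (0.10, adjusted p = 0.203) and with libraries centred on their median (0.10, adjusted p = 0.214). With no filter (adjusted p = 0.0613) and with only the libraries compared (adjusted p = 0.0517) the call was also lost, while the change stayed at 0.21. In resistant cells the interval of the DAC effect was -0.12 to 0.17. The line difference in DMSO was not called without parental DMSO replicate 1 (log2 difference -0.19, adjusted p = 0.0703) or without resistant DMSO replicate 1 (-0.23, adjusted p = 0.0587).

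Ratios within a library do not depend on how the libraries were scaled. PPHLN1 per TASOR was 0.217 and 0.200 in parental DMSO, 0.199 and 0.227 in parental DAC, 0.501 and 0.484 in resistant DMSO and 0.391 and 0.388 in resistant DAC. The ratio was higher in every resistant library than in any parental one, and lower with DAC than with DMSO in the resistant line. MPHOSPH8 per TASOR, between the subunits that moved the same way, was 0.648 and 0.578 in parental DMSO, 0.762 and 0.718 in parental DAC, 0.688 and 0.693 in resistant DMSO and 0.631 and 0.673 in resistant DAC. The resistant libraries were above the parental ones in DMSO and below them in DAC, and the parental DAC libraries were above the other 6.

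**Figure D2:**
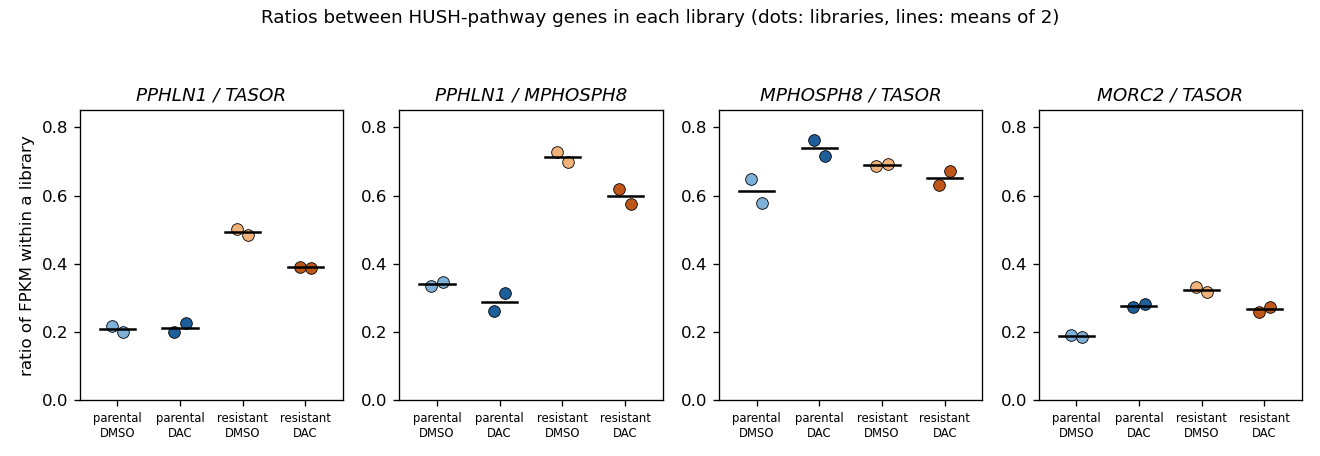
Ratio of FPKM between genes of the HUSH pathway within each library (vertical axis from 0, dots are libraries, lines are means of 2). The ratio of PPHLN1 to TASOR is at most 0.227 in parental and at least 0.388 in resistant libraries, while that of MPHOSPH8 to TASOR is higher in the resistant libraries with DMSO and lower with DAC.

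MORC2 (ENSG00000133422, chr22:30925130-30968774, minus strand), the ATPase that works with HUSH in compacting its targets, had the smallest p-value of the 10 for DAC in parental cells, where the log2 change of SUV39H1 was larger in size (-0.48). It stood at 5.40 and 5.41 FPKM in parental DMSO, 7.63 and 7.68 in parental DAC, 6.99 and 6.75 in resistant DMSO and 5.92 and 6.28 in resistant DAC. In parental cells the DAC libraries were above the DMSO ones and in resistant cells they were below. DAC changed it by 0.43 in parental cells (0.32 to 0.55, adjusted p = 0.000279) and by -0.15 in resistant cells (-0.26 to -0.04, adjusted p = 0.0917, not called), and the difference between these effects was -0.58 (-0.74 to -0.43, adjusted p = 0.000508). The line difference therefore changed sign with treatment, 0.30 in DMSO (adjusted p = 0.00159) and -0.29 in DAC (adjusted p = 0.00144). MORC2-AS1, an antisense gene, shares 1616 exon bases with MORC2 and stood at 0.0116 and 0.0242 FPKM in parental DMSO, 0.307 and 0.200 in parental DAC and at most 0.0489 in the resistant libraries. It was thus highest in the group in which MORC2 was highest, and its part was not tested.

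TRIM28 (ENSG00000130726, chr19:58544064-58550722, plus strand), the corepressor that KRAB zinc finger proteins recruit, was also raised by DAC in parental cells and was lower with it in resistant ones. It stood at 48.9 and 47.6 FPKM in parental DMSO, 55.6 and 59.6 in parental DAC, 49.1 and 47.1 in resistant DMSO and 40.4 and 42.9 in resistant DAC. The DMSO libraries of the lines overlapped, the parental DAC libraries lay above them and the resistant DAC libraries below. DAC changed it by 0.25 in parental cells (0.14 to 0.36, adjusted p = 0.00359) and by -0.20 in resistant cells (-0.31 to -0.09, adjusted p = 0.0406), with a difference of -0.45 between the effects (-0.61 to -0.30, adjusted p = 0.00159). The resistant call was lost in 11 of 17 alternatives, among them leaving out any 1 of the 4 resistant libraries (adjusted p from 0.0798 to 0.180). The parental effect was 0.14 with libraries centred on their median, and was still called (adjusted p = 0.0294). In DAC the lines differed by -0.46 (-0.57 to -0.35, adjusted p = 0.000156), and in DMSO the interval of the difference was -0.12 to 0.11.

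KDM1A (LSD1, ENSG00000004487, chr1:23019443-23083689, plus strand), which removes methyl groups from histone H3 lysine 4 within the CoREST complex, was raised by DAC in parental cells and lowered in resistant ones. Its levels were 21.2 and 21.2 FPKM in parental DMSO, 23.5 and 23.4 in parental DAC, 25.7 and 26.9 in resistant DMSO and 23.4 and 23.3 in resistant DAC. The resistant DMSO libraries were the highest, the parental DMSO libraries the lowest, and the DAC libraries of the lines lay close together between them. The DAC effect was 0.14 in parental cells (0.07 to 0.21, adjusted p = 0.00730) and -0.16 in resistant cells (-0.24 to -0.09, adjusted p = 0.0213). The parental effect was 0.03 with libraries centred on their median and 0.06 with quantile normalisation, and was called in neither. The effects differed by -0.31 (-0.41 to -0.20, adjusted p = 0.00144), or by -0.20 with libraries centred on their median, still called. The resistant call was lost without resistant DMSO replicate 2 or without either resistant DAC replicate (adjusted p from 0.0892 to 0.105). The lines differed by 0.30 in DMSO (0.23 to 0.37, adjusted p = 0.000228), and in DAC the interval was -0.08 to 0.07. In TPM the difference in DAC was 0.12 and was called higher.

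The 3 H3K9 methyltransferases behaved differently from one another. SUV39H1 (ENSG00000101945, chrX:48695554-48709016, plus strand), the enzyme of constitutive heterochromatin, stood at 7.82 and 6.70 FPKM in parental DMSO, 4.43 and 5.41 in parental DAC, 7.04 and 6.75 in resistant DMSO and 6.52 and 6.62 in resistant DAC. The parental DAC libraries were the lowest, and the other 6 lay between 6.52 and 7.82. DAC lowered it in parental cells by 0.48 on the log2 scale (interval -0.71 to -0.25, adjusted p = 0.00506), so that the mean fell by 32.2%. In resistant cells the interval of the DAC effect was -0.29 to 0.17. The difference between the effects, 0.42 (0.10 to 0.75), passed narrowly (adjusted p = 0.0399), and it was not called without parental DMSO replicate 1, without parental DAC replicate 1 or without any 1 of the 4 resistant libraries (adjusted p from 0.0756 to 0.110).

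EHMT2 (G9a, ENSG00000204371, chr6:31879759-31897698, minus strand), which with EHMT1 places mono- and dimethyl marks on H3K9, was higher in the resistant line with either treatment. It stood at 14.4 and 15.4 FPKM in parental DMSO, 14.6 and 14.5 in parental DAC, 19.4 and 19.3 in resistant DMSO and 17.4 and 16.5 in resistant DAC. Every resistant library was above every parental one. The lines differed by 0.36 in DMSO (0.25 to 0.46, adjusted p = 0.000469) and by 0.21 in DAC (0.11 to 0.31, adjusted p = 0.00418; 0.34 in TPM). EHMT2-AS1, on the opposite strand, shares 592 exon bases with it and stood at 0.305 FPKM at most.

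SETDB1 (ENSG00000143379, chr1:150926263-150964744, plus strand), the methyltransferase that TRIM28 and HUSH use, varied little. It stood at 13.6 and 14.5 FPKM in parental DMSO, 14.5 and 14.1 in parental DAC, 12.5 and 11.2 in resistant DMSO and 12.9 and 12.4 in resistant DAC, so that all resistant libraries were below all parental ones. The line difference was -0.23 in DMSO (-0.37 to -0.08, adjusted p = 0.0161) and -0.17 in DAC (-0.31 to -0.02, adjusted p = 0.0447). The first was lost in TPM (log2 difference -0.17, adjusted p = 0.0594) and without parental DMSO replicate 2 (-0.18) or resistant DMSO replicate 2 (-0.15), and the second without any 1 of the 4 DAC libraries or without parental DMSO replicate 2 (adjusted p from 0.0501 to 0.171). The second was also lost in TPM (-0.05, adjusted p = 0.520), with libraries centred on their median (-0.09, adjusted p = 0.224) and with quantile normalisation (-0.16, adjusted p = 0.0512). No DAC effect on SETDB1 was called, with intervals of -0.12 to 0.17 in parental and -0.05 to 0.23 in resistant cells. Exons of SETDB1 share 948 bases with CERS2 on the opposite strand, a gene of 33.8 to 52.5 FPKM. CERS2 stood at 38.85 and 38.23 FPKM in parental DMSO, 52.45 and 51.81 in parental DAC, 36.22 and 36.35 in resistant DMSO and 33.82 and 37.71 in resistant DAC. It was thus highest in parental DAC, and the part of the shared bases in the values of SETDB1 was not tested.

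ATF7IP (ENSG00000171681, chr12:14365676-14502931, plus strand), which holds SETDB1 in the nucleus and protects it from degradation, was highest in parental DMSO. It stood at 14.1 and 14.0 FPKM there, at 12.7 and 12.6 in parental DAC, 12.0 and 11.5 in resistant DMSO and 12.2 and 11.7 in resistant DAC. The other 6 libraries were all below the parental DMSO ones. The line difference in DMSO was -0.23 (-0.32 to -0.14, adjusted p = 0.00193). DAC lowered it in parental cells by 0.14 on the log2 scale (interval -0.23 to -0.05, adjusted p = 0.0171), a call that was lost without any 1 of the 4 parental libraries (adjusted p from 0.0524 to 0.0698). The fall was larger with quantile normalisation (-0.25) and with libraries centred on their median (-0.25). SETDB1 per ATF7IP stayed between 0.963 and 1.15 in the 8 libraries.

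**Figure D3:**
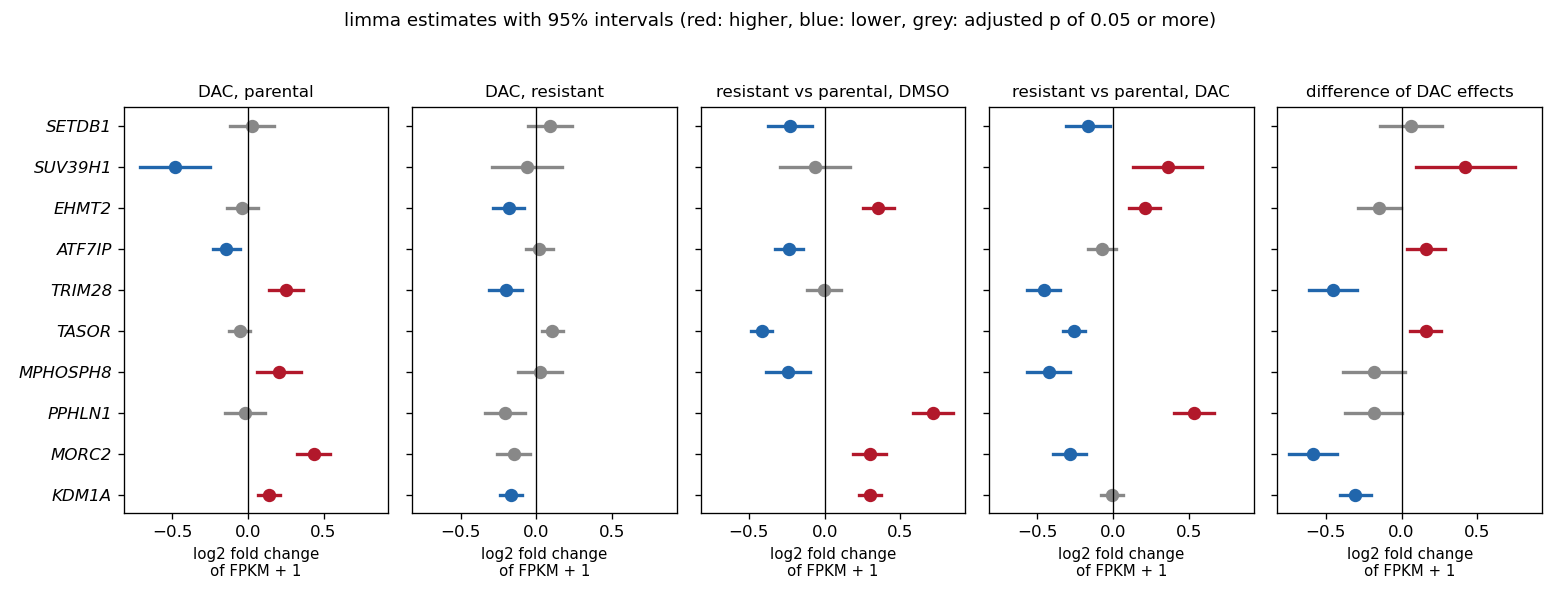
Log2 fold change of FPKM + 1 (horizontal axis) with its 95% interval for the 10 genes in 5 comparisons, from the limma fit of all 8 libraries, red for higher and blue for lower at adjusted p under 0.05 and grey for the rest. The widest shift is that of PPHLN1 between the lines in DMSO, 0.72, and the intervals in resistant cells given DAC all lie within -0.34 to 0.23.

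Counted over the 10 genes, DAC in parental cells gave 4 higher (MORC2, TRIM28, MPHOSPH8 and KDM1A) and 2 lower (SUV39H1 and ATF7IP), 6 in all. Of all genes tested, 57.7% were called in this comparison, 33.6% higher and 24.1% lower, so the share among the silencers was near the background. The split depended on scaling. With libraries centred on their median, or quantile normalised, 2 were higher (MORC2 and TRIM28) and 4 lower (SUV39H1, ATF7IP, TASOR and EHMT2). All genes moved with them, with 58% and 59.4% called and a median change of -0.05 under both, against 0.06 as deposited. MPHOSPH8 was also lost without parental DMSO replicate 2 (log2 change 0.15) and without parental DAC replicate 1 (0.15). The median size of the change was 0.14 for the 10 genes and 0.31 for all genes tested.

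In resistant cells DAC gave 3 lower (KDM1A, TRIM28 and EHMT2) and 0 higher by limma, against 11.2% of all genes called, 5.88% higher and 5.35% lower. At an unadjusted p under 0.05, 1 was higher (TASOR) and 5 were lower, PPHLN1 and MORC2 beside the 3 called ones. Of all genes, 27% passed that threshold, 14.4% higher and 12.6% lower. The number of calls changed with the libraries used. It was 0 without resistant DMSO replicate 2, without resistant DAC replicate 1 or without resistant DAC replicate 2, it was 1 without resistant DMSO replicate 1, and it was 6 when voom was run on recovered reads (1 higher and 5 lower). The share of all genes called changed too, to between 2.95% and 4.13% without 1 resistant library and to 20.2% with voom. EHMT2 changed by -0.18 (adjusted p = 0.0421), a call lost in 10 of 17 alternatives, among them TPM (adjusted p = 0.0800) and leaving out any 1 of the 4 resistant libraries (0.0758 to 0.185). PPHLN1, at -0.21, had an adjusted p of 0.0632 and TASOR, at 0.11, one of 0.0704.

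Between the lines in DMSO, 4 were higher in resistant cells (PPHLN1, EHMT2, KDM1A and MORC2) and 4 lower (TASOR, MPHOSPH8, ATF7IP and SETDB1), where 57.5% of all genes were called, 31.3% higher and 26.2% lower. In DAC, 3 were higher (PPHLN1, SUV39H1 and EHMT2) and 5 lower (TRIM28, MPHOSPH8, MORC2, TASOR and SETDB1), where 67% of all genes were called, 32% higher and 35.1% lower. SUV39H1 differed there by 0.36 (adjusted p = 0.0143), and its call was lost without parental DAC replicate 1 or without either resistant DAC replicate (adjusted p from 0.051 to 0.0751). With values rescaled to TPM, the split in DAC was 4 higher and 4 lower, with KDM1A called higher (0.12, adjusted p = 0.0142) and SETDB1 not called. In TPM 66.7% of all genes were called, and their median difference was 0.08 against -0.03. The comparisons between the lines share libraries with the DAC comparisons.

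The DAC effect differed between the lines for 6 of the 10, where 49.3% of all genes were called, 20.9% with a positive and 28.4% with a negative difference. The difference was negative for MORC2, TRIM28 and KDM1A, and those 3 calls held in all 16 alternatives run. It was positive for SUV39H1 (0.42), ATF7IP (0.16) and TASOR (0.16, adjusted p = 0.0191). Not called were PPHLN1 (-0.18, adjusted p = 0.0927), MPHOSPH8 (-0.18, adjusted p = 0.123), EHMT2 (-0.15, adjusted p = 0.0839) and SETDB1 (0.062, adjusted p = 0.581). The call of ATF7IP was lost without any 1 library other than resistant DMSO replicate 1 (adjusted p from 0.0505 to 0.125), and that of TASOR without parental DMSO replicate 2, resistant DMSO replicate 1 or resistant DAC replicate 2 (adjusted p from 0.0580 to 0.0625). With libraries centred on their median the differences of ATF7IP and TASOR were both 0.26. No silencer reached an unadjusted p of 0.01 with a log2 change of 1 in any of the 5 comparisons, where 9.31%, 0.235%, 8.73%, 14.5% and 10.6% of all genes did, in the order given here.

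**Figure D4:**
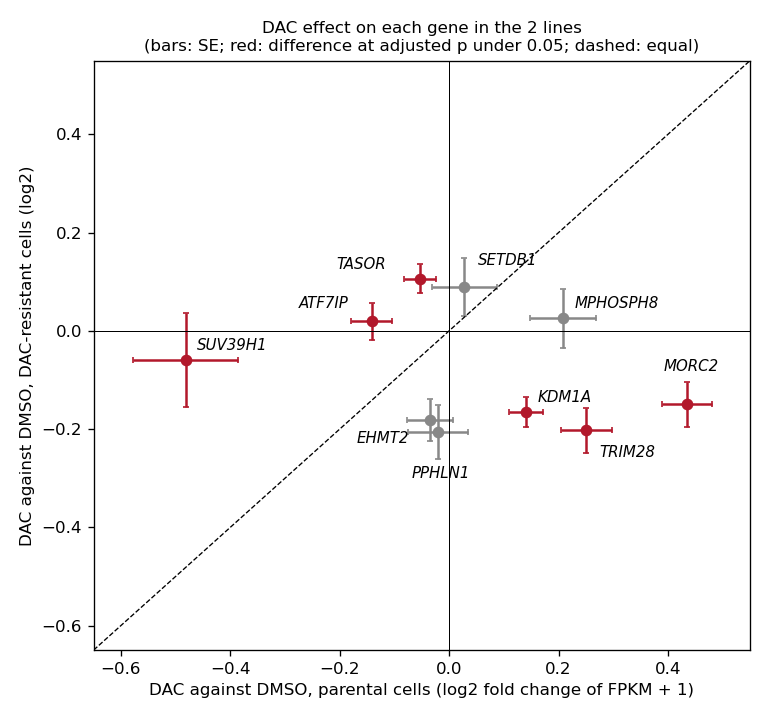
DAC against DMSO in parental cells (horizontal axis) and in DAC-resistant cells (vertical axis) for each gene, as log2 fold change of FPKM + 1 with bars of 1 standard error, a dashed line of equal effects, and red where the difference between the effects had an adjusted p under 0.05. MORC2, TRIM28 and KDM1A lie to the right of and below 0, with parental effects of 0.43, 0.25 and 0.14 and resistant effects of -0.15, -0.20 and -0.16.

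Partners of the silencers were tested in the same fit and are given with the share of all genes called in the comparison. Their lists were written from general knowledge but with earlier results of these data known, so they are no independent check. Among 12 genes of H3K9 methylation and its readers, parental DAC gave 6 higher and 1 lower (57.7% of all genes called), and the resistant line in DMSO 4 higher and 2 lower (57.5%), so both counts were near the background. The HP1 protein CBX5, which binds methylated H3K9, had means of 37.4 FPKM in parental DMSO, 22.9 in parental DAC, 65.1 in resistant DMSO and 57.6 in resistant DAC (log2 change -0.69 with DAC in parental cells, adjusted p = 2.55e-06, and 0.78 between the lines in DMSO, adjusted p = 1.96e-06). SETDB2, a methyltransferase related to SETDB1, was lower in the resistant line by 0.72 on the log2 scale (log2 difference -0.72, adjusted p = 0.000113).

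Among 8 tested genes of HUSH-associated and related silencers, 6 were higher and 1 lower with DAC in parental cells (57.7% of all genes called), 0 higher and 1 lower with DAC in resistant cells (11.2%), and 1 higher and 5 lower in the resistant line in DMSO (57.5%). RESF1, a SETDB1 partner in silencing retroviral elements, had means of 46.4 FPKM in parental DMSO, 133.8 in parental DAC, 27.9 in resistant DMSO and 27.9 in resistant DAC, with a DAC effect of 1.51 in parental cells (adjusted p = 1.58e-07) and a difference between the effects of -1.51 (adjusted p = 1.29e-06). PIWIL4, a Piwi protein, had 10.9, 32.3, 28.5 and 23.1 FPKM in the same order of groups, and was higher by 1.30 in the resistant line in DMSO (adjusted p = 2.30e-06).

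Among 13 tested partners of KDM1A, 3 were higher and 7 lower with DAC in parental cells (57.7% of all genes called), 4 higher and 2 lower with DAC in resistant cells (11.2%), and 7 higher and 3 lower in the resistant line in DMSO (57.5%). KDM1B (LSD2), the other flavin-dependent H3K4 demethylase, had means of 2.87, 5.90, 9.48 and 7.63 FPKM, and the CoREST subunit RCOR3 had 12.0, 10.4, 5.03 and 5.97, so they moved in opposite directions between the lines (1.44 and -1.11, adjusted p = 1.35e-05 and 1.01e-05). In the NuRD list of 11, 6 were higher and 4 lower in the resistant line in DMSO (57.5% of all genes called), with CHD3, a remodelling ATPase that TRIM28 binds, at 30.6 FPKM in parental and 9.05 in resistant cells (-1.65, adjusted p = 9.31e-07). Of 8 tested H3K9 demethylases, 1 was higher and 5 lower in that comparison, against the same share, with KDM4A lower (-0.63, adjusted p = 4.84e-06).

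The 12 proliferation genes gave 3 higher and 8 lower with DAC in parental cells (57.7% of all genes called, 24.1% lower), 0 higher and 9 lower with DAC in resistant cells (11.2%, 5.35% lower), and 10 higher and 1 lower in the resistant line in DMSO (57.5%, 31.3% higher). Of the 10 silencers, KDM1A, EHMT2 and PPHLN1 had their highest mean in resistant DMSO, the group in which the proliferation genes summed highest, and the other 7 had theirs in a parental group. Whether these move together for a shared reason was not tested.

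Repeat families that these proteins are known to silence were read in the same libraries, in the deposited unit and scaled by repeat reads. Of 19 LTR and SVA families, 12 were higher and 2 lower with DAC in parental cells, with a median log2 change of 0.68 against -0.02 over all 1165 families tested, of which 23.6% were called. Leaving out 1 parental library left 9 of the 19 higher and 1 or 2 lower, with 10.6% to 13.5% of all families called. The SVA_F family, a young composite retrotransposon, had values of 568 and 661 in parental DMSO, 1695 and 1778 in parental DAC, 853 and 838 in resistant DMSO and 750.4 and 749.9 in resistant DAC, so the parental DAC libraries stood above all others. With DAC in resistant cells limma called 0% of the families, none of the 19 among them, and 117 of 1165 families, 2 of the 19 among them, had an unadjusted p under 0.05.

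Of 8 young LINE-1 families, 3 were higher with DAC in parental cells (L1HS, L1PA2 and L1PA3, by 0.92, 0.78 and 0.37), and 2 were without any 1 parental library. L1HS, the family with active copies in the human genome, had values of 76.3 and 77.6 in parental DMSO, 147.0 and 145.8 in parental DAC, 104 and 96.7 in resistant DMSO and 119 and 122 in resistant DAC. Between the lines in DMSO, where 29.5% of families were called, 4 of the 8 were lower in resistant cells (L1PA4, L1PA5, L1PA6 and L1PA8). L1HS and L1PA2 went the other way, by 0.38 and 0.24, and were not called (limma adjusted p = 0.0788 and 0.110). L1PA3 and L1PA7 were lower without a call. The LTR and SVA families gave 5 higher and 5 lower. Among the higher was LTR12C (1812 and 1761 in resistant and 588 and 592 in parental DMSO). Among the lower was HERV9-int (68.1 and 78.7 in resistant and 139 and 142 in parental DMSO). Scaled per gene read, 6 of the 8 were lower and the LTR and SVA families gave 5 higher and 9 lower, but all families moved down on that scale, with 41.4% called, 74 higher and 408 lower, and a median log2 difference of -0.25 against -0.07. The resistant libraries held fewer repeat reads per gene read, 0.874 to 0.881 of the value in parental DMSO replicate 1, against 0.974 to 1 in the parental ones. Leaving out any 1 library left 2 young LINE-1 families lower in that comparison, with 12.3% to 25.3% of all families called. In DAC, where 36% of families were called, 3 LTR and SVA families were higher and 12 lower in resistant cells, and 5 young LINE-1 families were lower. The DAC effect differed between the lines for 1 LTR or SVA family upward and 9 downward, where 13.3% of families were called. Among the young LINE-1 families it differed for 1, downward (L1PA2, -0.57, limma adjusted p = 0.0463).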

How the data were processed

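RNA-seq was measured in 8 libraries of parental and DAC-resistant THP-1 cells, 2 in each of 4 groups taken from the sample titles. According to the study's methods and the submitters' processing notes, the authors trimmed reads with cutadapt 1.9.1, aligned them to hg38 with HISAT2 2.1.0, used SAMtools 1.6 and counted with HTSeq 0.13.5 on Ensembl genes and on repeat families. The authors deposited FPKM values multiplied by 1000 (the factor was read from the values), with genes and repeat families scaled by separate totals, so gene values were divided by 1000 here.

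FPKM are not counts, so a linear model of log2(FPKM + 1) with a mean for each of the 4 groups was run in limma 3.58.1 (R 4.3.3, variance trend) on 14899 genes that reached 1 FPKM in 2 or more libraries, and p-values were Benjamini-Hochberg adjusted over all genes tested (called under 0.05). The same model was run separately for repeat families, with 1 added to the deposited value. Fold changes on this scale understate the change of low genes. Differences are given as log2 values with 95% intervals. The smallest exact two-sided permutation p for 2 against 2 is 0.333, so no single-value test was run. Reads were recovered from the steps of low values with GENCODE 44 exon lengths (87.1% of gene values were whole within 0.02, and for SETDB1, EHMT2 and KDM1A the length was searched from the steps) and served for depth and for a voom alternative. Replicates differed by more than sampling noise. The fit was tested on simulated data for DAC against DMSO in parental cells over 14899 genes, where it recovered 46 of 100 changes of 0.5 and 95 of 100 changes of 1.5 on the log2 scale, with 6 false calls. No other gene was changed there, while 57.7% of genes were called in the data. The adjusted threshold therefore differed, and the recovery does not give the power of the fit in the data.

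The 10 genes and all lists were chosen with earlier results of these data known. All 10 are named in every comparison, and from each partner list and comparison at most the gene with the smallest p in each direction. Alternatives covered the pseudocount, the filter, TPM, quantile and median scaling, the replicate block, the libraries fitted, voom and leaving out each library.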

Additional observations from a re-analysis of the deposited data

Results flagged for a closer look

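For 6 of the 10 genes the DAC effect differed between the lines in the test of the difference itself (limma, adjusted over all genes, 2 libraries a group), which compares DAC against DMSO in resistant cells with the same contrast in parental cells. The difference was -0.58 for MORC2, -0.45 for TRIM28 and -0.31 for KDM1A, each with a rise in parental and a lower mean in resistant libraries. The parental rise of KDM1A depended on scaling, at 0.03 with libraries centred on their median and 0.06 with quantile normalisation, neither called. The difference was 0.42 for SUV39H1, which fell in parental cells, 0.16 for ATF7IP and 0.16 for TASOR. Of all genes tested, 49.3% were called in this test. The calls of MORC2, TRIM28 and KDM1A held in all 16 alternatives run, while those of SUV39H1, ATF7IP and TASOR were lost in 8, 8 and 3 of them, most often when 1 library was left out. No explanation for these differences was tested.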

How the results depend on the processing

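Of 31 calls on single genes, 18 held under every alternative run and none changed sign. None of the 10 silencers was called at an unadjusted p of 0.01 with a log2 change of 1, a count of 0 in each of the 5 comparisons. DAC in resistant cells gave 1 call with no filter, 1 with the replicate block, 0 with only the libraries compared and 6 with voom. Of all genes, 2.1%, 8.37%, 2.91% and 20.2% were called under those settings in turn. Without 1 library each it gave 0 to 2 (2.95% to 8.64% of all genes called), and the difference between the DAC effects 3 to 5 (42.1% to 43.8% of all genes called). The replicate numbers did not pair the samples (correlations of deviations from -0.022 to 0.020), and the block gave 6, 8, 7 and 5 calls in the other comparisons, where 56.1%, 56.2%, 65.9% and 47.4% of all genes were called. The signs that changed belonged to uncalled effects near 0, and the cause was not tested. For DAC in parental cells SETDB1 was -0.081 with quantile normalisation and -0.078 with median centring. Between the lines, TRIM28 in DMSO was 0.066 in TPM, ATF7IP in DAC 0.047 in TPM and 0.0045 centred, and KDM1A in DAC 0.12 in TPM (called) and 0.073 centred. Leaving out 1 library gave ranges of -0.019 to 0.074 (SETDB1), -0.077 to 0.0059 (EHMT2) and -0.085 to 0.043 (PPHLN1) for DAC in parental cells, of -0.0080 to 0.047 (ATF7IP) and -0.025 to 0.076 (MPHOSPH8) for DAC in resistant cells, of -0.16 to 0.035 (SUV39H1) and -0.035 to 0.024 (TRIM28) between the lines in DMSO, and of -0.012 to 0.14 for SETDB1 in the difference between the effects. For young LINE-1 families between the lines, the count in DMSO was 2 with the block (25.6% of all families called) and 2 without any 1 library (12.3% to 25.3%), and in DAC 2 to 4 without 1 library (21.5% to 33.8%) and 8 per gene read, a scale on which 43.1% of families were called, 110 higher and 392 lower. For their difference between the effects it was 1 in the main fit (13.3% of families). It was 0 per gene read, with the block and without any 1 library (13.1%, 8.84% and 6.18% to 8.41% of families). LTR and SVA families between the lines in DMSO gave 5 to 10 without 1 library (12.3% to 25.3% of families). These repeat settings were chosen after the data were seen. The fit to only the libraries compared could not be made for the difference between the effects.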
